A study of Mus musculus with 22 samples.

Results

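Expression of the phagocyte NADPH oxidase genes Cybb, Cyba, Ncf1, Ncf4 and Rac2 was described in cultured primary microglia of the mouse, macrophages that reside in the brain. These 5 genes were found by their symbols among the 15725 symbols of the deposited expression table. All 5 reached 1 FPKM in at least 3 libraries, the filter that kept 11070 genes for testing. FPKM is a fragment count corrected for how long a gene is and for how many fragments its library mapped. The microglia had been shaken off mixed glial cultures from the cortex of newborn C57BL/6 mice. The 22 RNA libraries formed 5 groups, and every culture had received lipopolysaccharide (LPS), an outer membrane molecule of bacteria to which microglia respond, for 24 h at 100 ng/ml. In the LPS group (n = 3) nothing else was added. Cultures of the LPS+Baf A1 group (n = 5) also had 10 nM bafilomycin A1, and those of the LPS+CLA group (n = 6) also had 50 nM CLA. For the LPS+siAtg5 group (n = 5) an siRNA against Atg5 was transfected at 50 nM for 48 h. The design text pairs this group with LPS+dNC (n = 3), for which the sources used here give no dose. Bafilomycin A1 blocks the vacuolar proton pump that acidifies lysosomes, and Atg5 is needed to form autophagosomes. Neither CLA nor dNC is spelled out in the labels. No culture without LPS was analysed here. Nothing in the labels ties replicates to separate cultures or animals, and p-values therefore reflect the spread between these samples alone, which may be technical.

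The phagocyte NADPH oxidase moves electrons from NADPH across the membrane of a phagosome or the cell surface and makes superoxide there. Its catalytic subunit gp91phox, encoded by Cybb, and its membrane partner p22phox, encoded by Cyba, form flavocytochrome b558. In a resting phagocyte subunits that include p47phox (Ncf1) and p40phox (Ncf4) lie in the cytosol, and they join the membrane part together with the GTPase Rac2 when the cell is stimulated. Loss of Cybb, Cyba, Ncf1 or Ncf4 causes chronic granulomatous disease in people, and in the brain this oxidase is known as a source of superoxide from activated microglia.

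The promoters of the members that changed are shown because Cybb and Ncf1 rose together under both agents added to LPS, while Cyba rose under Baf A1. RefSeq entries of build GRCm38.p6 were found for 3 of the 5 members. The 250 bases before the start of Cybb lie at chrX:9469325-9469574 on the minus strand, those of Ncf1 at chr5:134229626-134229875 on the minus strand and those of Cyba at chr8:122432941-122433190 on the minus strand. Capitals mark each match, on either strand, to the core letters of an interferon response element that IRF factors bind, which are GAAA repeated with any 2 bases between the copies.
Cybb: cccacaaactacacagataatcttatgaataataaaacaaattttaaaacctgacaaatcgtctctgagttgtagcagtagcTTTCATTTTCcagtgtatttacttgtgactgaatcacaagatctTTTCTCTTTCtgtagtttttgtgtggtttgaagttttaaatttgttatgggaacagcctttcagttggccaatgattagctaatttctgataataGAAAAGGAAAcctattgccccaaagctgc
Ncf1: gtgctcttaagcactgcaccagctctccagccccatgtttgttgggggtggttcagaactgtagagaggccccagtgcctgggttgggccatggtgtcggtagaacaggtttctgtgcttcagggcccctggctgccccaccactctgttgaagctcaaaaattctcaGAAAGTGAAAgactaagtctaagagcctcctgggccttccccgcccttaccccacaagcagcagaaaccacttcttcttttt
Cyba: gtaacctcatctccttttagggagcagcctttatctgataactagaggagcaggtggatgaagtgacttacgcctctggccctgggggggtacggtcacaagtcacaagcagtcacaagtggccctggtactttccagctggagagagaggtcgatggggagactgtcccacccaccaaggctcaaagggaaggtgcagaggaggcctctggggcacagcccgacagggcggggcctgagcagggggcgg
This interferon response motif occurred 3 times before Cybb, with the matches starting 168, 124 and 29 bases before the start of transcription, and 1 time before Ncf1, with the match starting 82 bases before it. Of the 32851 promoters of the same length in the RefSeq table, 2.98% held this motif. Before Cybb there was also 1 CCAAT box, held by 33.8% of promoters, and 1 AP-1 motif TGANTCA, held by 6.75%. None of the 3 promoters held GAGGAA (a core of the site of PU.1, the Spi1 product), the kappa-B letters GGGA and TTCC with any 2 bases between them, or TATAAA on either strand, which 23.3%, 1.21% and 12.4% of promoters held. Cyba held none of these 6 motifs, the matches before Cybb did not overlap, and the motifs were chosen after the values were seen. A match describes letters only, and other forms of each site, that of PU.1 included, were not searched.

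In the GENCODE annotation of GRCm38, Cybb (ENSMUSG00000015340) spans 9435252 to 9487771 on chromosome X and Cyba (ENSMUSG00000006519) 122424776 to 122432930 on chromosome 8. Ncf1 (ENSMUSG00000015950) spans 134220053 to 134229625 on chromosome 5, Rac2 (ENSMUSG00000033220) 78559167 to 78572783 on chromosome 15, all on the minus strand, and Ncf4 (ENSMUSG00000071715) 78244801 to 78262580 on the plus strand of chromosome 15. The promoter printed for Cybb is placed before the RefSeq start, which lies inside the longer span given here for Cybb. The sources used here do not give the authors' build. Exons of Ncf1 share 408 bases with Gtf2ird2 on the opposite strand, and 7.445% of its 50-base words occur in transcripts of other genes, so part of its signal cannot be assigned without strand. That share was 2.39% for Cyba, 1.29% for Rac2 and 0 for Cybb and Ncf4.

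Libraries summed to between 469750 and 575125 FPKM, with the 3 LPS+dNC libraries (556496 to 575125) above all others (at most 525127). In the absence of read counts the depth behind each value is unknown. Atg5 was at 12.59 to 13.51 FPKM in LPS+siAtg5, below the 21.36 to 24.26 FPKM of LPS+dNC and the 19.83 to 20.41 FPKM of LPS. Against libraries of their own group, LPS replicate 3, LPS+dNC replicate 1 and LPS+CLA replicate 2 lay apart. The SD of their log2 differences was 0.284, 0.388 and 0.273 at most, where the other libraries of those groups differed by 0.158, 0.187 and up to 0.156. The 16 myeloid lineage genes, which include Ptprc, Csf1r, Aif1 and C1qa, summed to between 9254 and 12575 FPKM per library, so RNA of the myeloid lineage was present throughout. Single genes moved within that sum. In LPS+dNC the mean of Csf1r was 153 FPKM, against 443 to 1087 FPKM in the other groups. Fcer1g had a mean of 5103 FPKM in LPS+dNC, against 2109 to 2754 FPKM in the other groups. In LPS+siAtg5 the libraries also had more genes at or above 1 FPKM (10752 to 10908, against 9112 to 9571 elsewhere), and the 10 astrocyte markers summed to 336 to 393 FPKM, against 5.63 to 20.7 FPKM in all other libraries. In bulk RNA, fewer cells of a type and less RNA per cell cannot be told apart.

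All 5 genes were abundant. By mean FPKM, which allows levels of different genes to be set side by side, Cybb lay between place 52 and place 116 among the 11070 genes over the 5 groups, and Ncf4, the lowest member, between place 402 and place 514. In 14 of the 22 libraries the order of the levels was Cybb, Rac2, Cyba, Ncf1 and Ncf4. In all 6 LPS+CLA libraries Ncf1 stood above Cyba. The 2 other orders were those of LPS+Baf A1 replicate 2, where Rac2 came after Ncf1, and of LPS+dNC replicate 1, where Cyba and Rac2 came before Cybb. Ncf4 was the lowest of the 5 in every library.

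**Figure D1:**
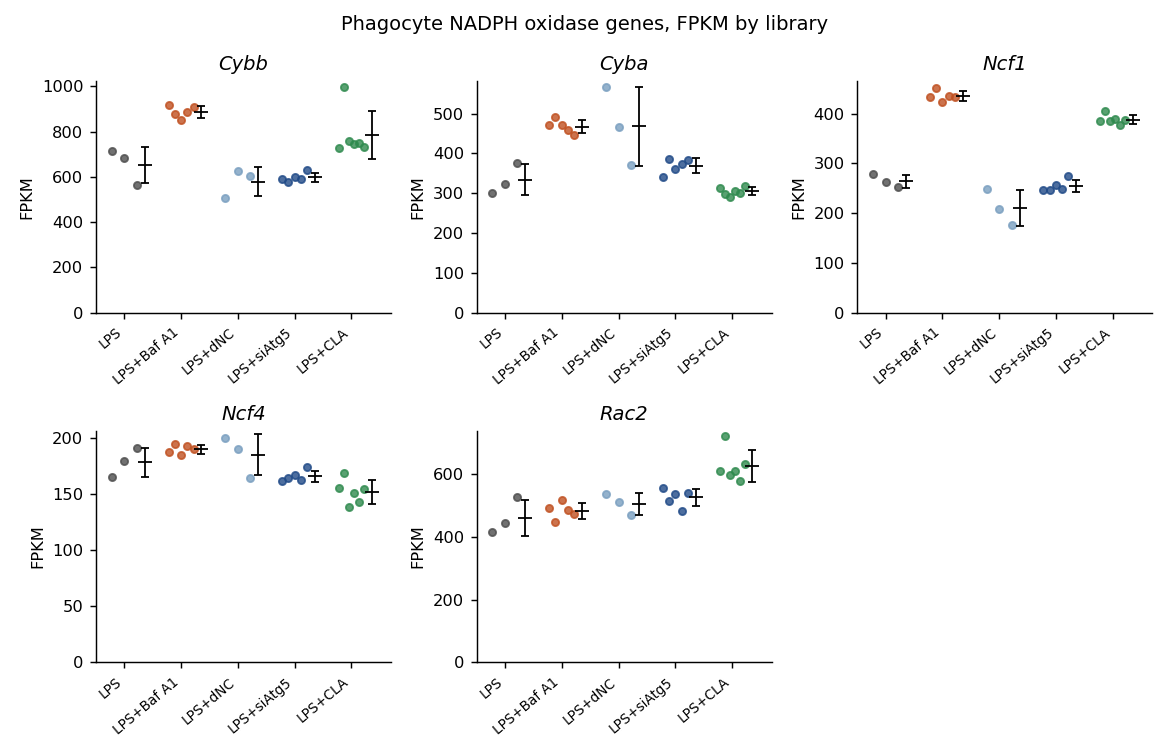
FPKM of Cybb, Cyba, Ncf1, Ncf4 and Rac2 (1 panel each, linear axis from 0) in each library of the 5 groups, with the group mean and SD in black. Ncf1 in LPS+Baf A1 (424.19 to 451.45) and LPS+CLA (377.13 to 404.82) lies above every other library, whose highest value was 277.68, and 1 LPS+CLA library stands high for Cybb at 999.28.

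Over the groups, mean Cybb was highest in LPS+Baf A1 (889 ± 27.1 FPKM, SD, n = 5) and then in LPS+CLA (786 ± 105, n = 6), whose libraries overlapped. It was lower in LPS (653 ± 78.0, n = 3), LPS+siAtg5 (598 ± 20.9, n = 5) and LPS+dNC (579 ± 63.9, n = 3), each of which overlapped the next. Ncf1 gave the clearest order, with LPS+Baf A1 (435 ± 9.98) above LPS+CLA (388 ± 9.26) and LPS+CLA above LPS (264 ± 13.0), none of them overlapping, and then LPS+siAtg5 (255 ± 11.7) and LPS+dNC (210.4 ± 36.1), which overlapped. For Cyba, LPS+dNC (468 ± 98.7) and LPS+Baf A1 (467 ± 16.8) were highest and overlapped, and LPS+Baf A1 did not overlap LPS+siAtg5 (369 ± 18.7). LPS (334 ± 38.6) and LPS+CLA (305 ± 10.1) followed, with overlaps between neighbours. For Rac2, LPS+CLA (626 ± 50.8) was highest and did not overlap LPS+siAtg5 (527 ± 28.3), while LPS+dNC (506 ± 34.6), LPS+Baf A1 (484 ± 25.6) and LPS (463 ± 57.6) overlapped in turn. Ncf4 kept within a narrow range, from 190.2 ± 4.05 FPKM in LPS+Baf A1 through LPS+dNC (185 ± 18.3), LPS (178 ± 13.1) and LPS+siAtg5 (166 ± 4.94) to 152 ± 10.7 in LPS+CLA, and all neighbours overlapped.

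The comparison of LPS+Baf A1 with LPS asks how blocking lysosomal acidification changed expression in LPS-treated microglia. Both membrane subunits and the organiser Ncf1 rose, while the adaptor Ncf4 and the GTPase Rac2 did not pass the test. Cybb was at 713.06, 682.03 and 565.17 FPKM in the LPS libraries and at 919.21, 879.01, 849.92, 885.89 and 908.8 FPKM in the LPS+Baf A1 libraries. All 5 treated libraries were above all 3 LPS libraries, and the rise was 0.45 on the log2(FPKM + 1) scale (SE 0.088, 1.37-fold, adjusted p = 0.000146 by limma). Cyba was at 300.84, 323.76 and 376.18 FPKM under LPS and at 471.16, 490.24, 471.38, 458.41 and 445.16 FPKM under LPS+Baf A1. The groups did not overlap, and Cyba rose by 0.49 (SE 0.088, 1.4-fold, adjusted p = 5.3e-05). The ratio of Cybb to Cyba, the 2 chains of the cytochrome at the RNA level, was 1.99 ± 0.44 under LPS and 1.9 ± 0.11 under LPS+Baf A1, a difference within the spread between libraries.

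Ncf1 gave the largest change of the 5 members under Baf A1. Its LPS libraries were at 277.68, 261.77 and 252.02 FPKM and its LPS+Baf A1 libraries at 433.13, 451.45, 424.19, 435.15 and 432.26 FPKM, with no overlap. The rise was 0.72 (SE 0.068, 1.65-fold, adjusted p = 6.47e-09). Ncf4, whose product binds the lipid phosphatidylinositol 3-phosphate, was at 165.02, 179.16 and 191.11 FPKM under LPS and at 187.66, 194.78, 184.89, 193.37 and 190.09 FPKM under LPS+Baf A1. These groups overlapped, and the difference was 0.09 (95% interval -0.03 to 0.22, adjusted p = 0.204). Rac2 was at 415.25, 445.75 and 526.66 FPKM under LPS and at 493.27, 449.67, 518.96, 485.31 and 472.58 FPKM under LPS+Baf A1, also overlapping, with a difference of 0.07 (95% interval -0.08 to 0.22, adjusted p = 0.434). The ratio of Ncf1 to Ncf4 was 1.49 ± 0.18 in LPS and 2.29 ± 0.027 in LPS+Baf A1, and its lowest value under Baf A1 (2.25) was above its highest under LPS (1.68).

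Thus 3 of 5 members were called as higher and 0 as lower under Baf A1. Of all 11070 genes tested, 57.8% were called in this comparison, 32.7% as higher and 25.1% as lower, so a call alone is common here. The median change of the 5 members was 0.45, beside 0.04 for all genes tested. The 2-sided exact permutation test of 3 against 5 libraries gave p = 0.0179 for Cybb, Cyba and Ncf1, the smallest p this design allows, and p = 0.0714 for Ncf4 and 0.446 for Rac2. Without the 3 libraries that lay apart, Ncf4 and Rac2 were called too (0.14 and 0.17, adjusted p = 0.0203 and 0.0102 by limma), which made 5 of 5. In that setting 3768 of the 11070 genes were called as higher and 3321 as lower. Without LPS replicate 1 the Rac2 difference was -0.0033. The summed myeloid markers were at 9254 to 9420.4 FPKM in LPS+Baf A1 and 9586 to 10279 FPKM in LPS, and 7 of these 16 genes rose and 6 fell under Baf A1. Summed fibroblast, mural and endothelial markers were at 16.6 to 21.9 FPKM in LPS+Baf A1 and 11.1 to 15.9 FPKM in LPS, and the 4 border macrophage markers at 186 to 243 and 103 to 116 FPKM, with Pf4 higher and Mrc1 lower. Summed astrocyte markers were at 17.9 to 20.7 FPKM in LPS+Baf A1 and 9.25 to 14.9 FPKM in LPS. Neuron markers were at 6.08 to 9.24 and 10.7 to 14.4 FPKM, and neutrophil markers at 76.1 to 81.0 and 108 to 125 FPKM. Their part in the members' changes was not tested.

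**Figure D2:**
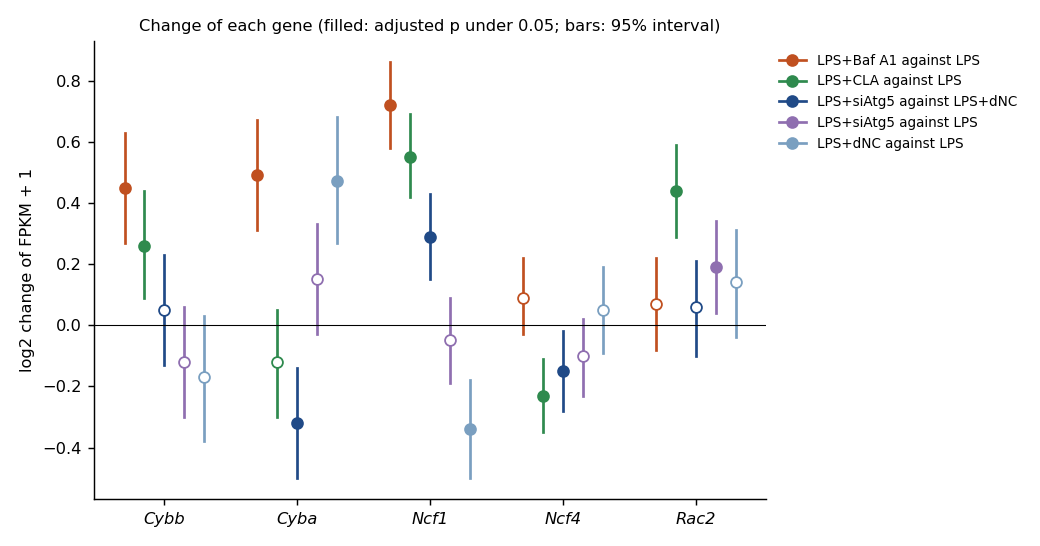
Change of each gene on the log2(FPKM + 1) scale in 5 comparisons, with the 95% interval of the limma fit as a bar, and filled points for an adjusted p under 0.05. Cybb, Cyba and Ncf1 rose under Baf A1 (0.45, 0.49 and 0.72), and Cyba and Ncf1 differed between LPS+dNC and LPS in opposite directions (0.47 and -0.34).

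The comparison of LPS+CLA with LPS asks what CLA changed in the same LPS state. Here the GTPase Rac2 rose along with Cybb and Ncf1, Ncf4 fell, and Cyba did not pass the test. Ncf1 was at 384.34, 404.82, 384.68, 388.9, 377.13 and 386.39 FPKM in the 6 LPS+CLA libraries. All 6 were above the 3 LPS libraries, and Ncf1 rose by 0.55 (SE 0.066, 1.47-fold, adjusted p = 1.45e-07). Rac2, the Rac form of blood cells, was at 612.23, 723.71, 598.62, 612.19, 579.21 and 632.25 FPKM under LPS+CLA. Again no library overlapped LPS, and the rise was 0.44 (SE 0.071, 1.36-fold, adjusted p = 1.21e-05). Cybb was at 729.01, 999.28, 758.43, 745.37, 750.44 and 733.2 FPKM, where replicate 2 was high and the other 5 lay close together, just above the highest LPS library at 713.06 FPKM. The rise of Cybb was 0.26 (SE 0.085, 1.2-fold, adjusted p = 0.0101), and without LPS replicate 3, the lowest LPS library for Cybb, it was 0.16 and no longer called (adjusted p = 0.122).

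Ncf4 was at 155.77, 168.95, 138.45, 151.18, 143.41 and 155.02 FPKM under LPS+CLA. Only replicate 2 reached above the lowest LPS library (165.02 FPKM), and Ncf4 fell by 0.23 on the log2 scale (SE 0.06, adjusted p = 0.00198). Cyba was at 314.03, 298.28, 291.62, 304.78, 301.11 and 318.79 FPKM, overlapping LPS, with a difference of -0.12 (95% interval -0.3 to 0.05, adjusted p = 0.21). After median-of-ratios scaling, quantile normalization or centring on the myeloid genes the Cyba difference was -0.27, -0.28 and -0.22 and was called. The ratio of Cybb to Cyba was 2.59 ± 0.39 in LPS+CLA (1.99 ± 0.44 in LPS), and that of Ncf1 to Ncf4 was 2.56 ± 0.14, with its lowest value of 2.4 above the highest LPS value of 1.68.

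For CLA, 3 of 5 members were called as higher and 1 as lower, where 63.1% of all genes tested were called, 40.4% as higher and 22.6% as lower. The members' median change was 0.26, beside 0.09 for all genes. Exact permutation of 3 against 6 libraries gave p = 0.0119 for Cybb, Ncf1 and Rac2, the smallest p possible, 0.0238 for Ncf4 and 0.0714 for Cyba. Without the 3 libraries that lay apart the counts were again 3 and 1, but the rise of Cybb shrank to 0.09 (adjusted p = 0.028 by limma), and the members' median was then 0.09 beside 0.08 for all genes. Of the 11070 genes, 4581 were then called as higher and 2923 as lower. Centring on the myeloid genes, whose sum was 10826 to 11176 FPKM in LPS+CLA, gave 0.46 for Ncf1, 0.35 for Rac2, 0.17 for Cybb (adjusted p = 0.135) and -0.32 for Ncf4. Summed fibroblast, mural and endothelial markers were at 14.7 to 28.1 FPKM in LPS+CLA (11.1 to 15.9 in LPS), and border macrophage markers at 159 to 283 FPKM (103 to 116 in LPS), with Pf4 higher and Mrc1 lower. Summed neuron markers were lower, at 0.79 to 6.78 FPKM (10.7 to 14.4 in LPS), as were neutrophil markers, at 67.5 to 83.3 FPKM (108 to 125 in LPS). The part of all these markers' cells was not tested.

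The comparison of LPS+siAtg5 with LPS+dNC asks what the siRNA against Atg5 changed, with Atg5 RNA lowered in part (log2 change -0.73). As deposited, Ncf1 was higher and Cyba and Ncf4 were lower in LPS+siAtg5, while Cybb and Rac2 did not pass the test, and every member's libraries overlapped between the groups. Ncf1 was at 247.83, 207.37 and 175.87 FPKM in LPS+dNC and at 247.35, 246.31, 255.93, 249.19 and 274.45 FPKM in LPS+siAtg5. The 3 LPS+dNC libraries spread widely and 3 of the 5 siAtg5 libraries were above all of them. The rise of Ncf1 was 0.29 (SE 0.068, adjusted p = 0.000528), and after median-of-ratios scaling it turned to -0.04 (adjusted p = 0.696). Cyba was at 567.85, 466.56 and 370.47 FPKM in LPS+dNC and at 340.97, 386.71, 361.06, 374.3 and 383.42 FPKM in LPS+siAtg5. The fall of Cyba was -0.32 (SE 0.088, adjusted p = 0.00202), and quantile normalization brought it to -0.05 (adjusted p = 0.522).

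Ncf4 was at 200.12, 190.25 and 164.63 FPKM in LPS+dNC and at 161.38, 164.59, 166.77, 162.55 and 173.86 FPKM in LPS+siAtg5. The difference of -0.15 (SE 0.062, adjusted p = 0.0274) was lost without LPS+dNC replicate 1 (-0.09), without LPS+dNC replicate 2 (-0.13) and without LPS+siAtg5 replicate 1 (-0.14). Cybb was at 507.17, 628.51 and 602.37 FPKM in LPS+dNC and at 591.25, 575.91, 599.68, 590.56 and 631.94 FPKM in LPS+siAtg5. Its difference was 0.05 (95% interval -0.13 to 0.23, adjusted p = 0.602), and it was -0.27 after median-of-ratios scaling, 0.48 after quantile normalization and -0.04 without LPS+dNC replicate 1. Rac2 was at 538.25, 511.21 and 469.58 FPKM in LPS+dNC and at 557.01, 516.38, 536.23, 483.03 and 540.2 FPKM in LPS+siAtg5. Its difference was 0.06 (95% interval -0.1 to 0.21, adjusted p = 0.48), with -0.27 and 0.41 under those same 2 scalings.

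So 1 of 5 members was called as higher and 2 as lower, in a comparison where 81.2% of all genes tested were called, 59.6% as higher and 21.6% as lower. The median of all genes was 0.34 as deposited, 0.06 after median-of-ratios scaling and -0.02 after quantile normalization. Relative to the median of all genes as deposited, Ncf1 stood at -0.05, Cybb at -0.29, Rac2 at -0.28, Ncf4 at -0.49 and Cyba at -0.66. The members called were 0 higher and 4 lower after median-of-ratios scaling, 3 higher and 0 lower after quantile normalization, and 0 higher and 3 lower relative to the myeloid genes. Of the 11070 genes, 4699 were called as higher and 3981 as lower after median-of-ratios scaling. These counts were 4206 and 4362 after quantile normalization, and 4962 and 3558 relative to the myeloid genes. Exact permutation of 3 against 5 libraries gave p = 0.0536 for Ncf1 and Ncf4, 0.0714 for Cyba, 0.375 for Rac2 and 0.643 for Cybb, where the smallest possible is 0.0179.

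Markers of other cells moved with the siAtg5 comparison too. All 10 astrocyte markers rose in LPS+siAtg5, and the summed neuron markers were at 45.9 to 56.1 FPKM there and at 1.67 to 11.4 FPKM in LPS+dNC. The summed fibroblast, mural and endothelial markers were at 90.4 to 121 FPKM, against 5.68 to 14.7 FPKM. Neutrophils are rich in this oxidase, and the 4 neutrophil markers found in the table summed to 265 to 763 FPKM in LPS+dNC, against 66.1 to 125 FPKM in the other 19 libraries. Among them S100a8, also made by activated macrophages, had a mean of 357 ± 255 FPKM in LPS+dNC. Csf3r was at 136 ± 5.46 FPKM there and 108 ± 5.28 FPKM in LPS. Camp went the other way, with its lowest mean in LPS+dNC (0.277 ± 0.136 FPKM, against 0.866 to 2.67 FPKM elsewhere). The neutrophil receptor gene Cxcr2 was at only 0.05 to 0.13 FPKM in LPS+dNC, and was listed at 0 in all libraries of the other 4 groups. Ly6g, S100a9, Mpo, Elane, Ltf and Ngp were also on the list but were not found among the 15725 symbols. The part of these cells' RNA in the members' levels was not tested.

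**Figure D3:**
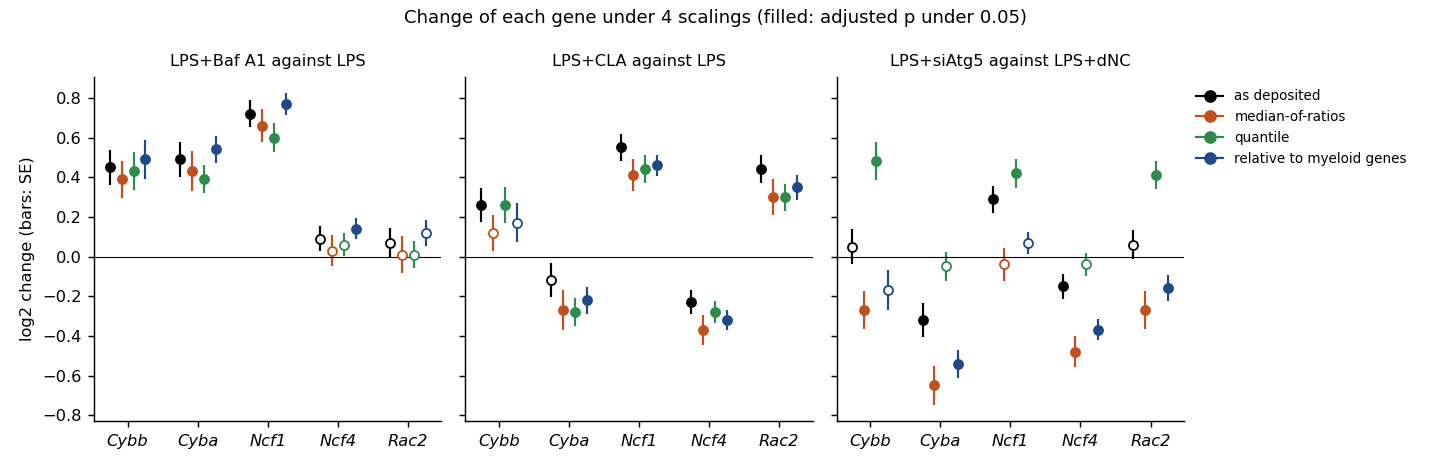
Change of each gene in the 3 comparisons named in the design text under 4 scalings of the same libraries, with the SE as a bar and filled points for an adjusted p under 0.05. Under Baf A1 the 3 called genes stay between 0.39 and 0.77, whereas in LPS+siAtg5 against LPS+dNC Cybb moves from -0.27 to 0.48.

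LPS+dNC differed from LPS alone in 2 members, with 57.2% of all genes called. Cyba was higher in LPS+dNC by 0.47 (adjusted p = 0.000274) and Ncf1 was lower by 0.34 (log2 change -0.34, adjusted p = 0.000585). With only these 2 groups fitted the Ncf1 call was lost (adjusted p = 0.0632). Without LPS replicate 3, Cybb (-0.27, adjusted p = 0.0241) and Rac2 (0.23, adjusted p = 0.0165) were called as well. Against LPS, Rac2 was the member called in LPS+siAtg5 (0.19, adjusted p = 0.0221, with 76.8% of all genes called). That call was lost without LPS replicate 1 (0.12), LPS replicate 2 (0.17) or LPS+siAtg5 replicate 1 (0.17), and it turned to -0.16 after median-of-ratios scaling. Under that scaling Cybb (-0.48), Ncf4 (-0.46) and Ncf1 (-0.41) were called as lower (adjusted p = 0.000101, 2.25e-05 and 0.000155). Without LPS replicate 3, Cybb (-0.22) and Cyba (0.24) were called, and without LPS replicate 1, Ncf4 (-0.16). With all libraries and the values as deposited, the Ncf1 difference between LPS+siAtg5 and LPS was -0.05 (95% interval -0.19 to 0.09) and the Cyba difference 0.15 (-0.03 to 0.33). These comparisons share their LPS libraries with those above.

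The difference between the siAtg5 effect and the Baf A1 effect was tested directly, with 72.7% of all genes called. It was below 0 for 4 of the 5 members, at -0.81 for Cyba (adjusted p = 4.64e-06), -0.43 for Ncf1 (0.000355), -0.4 for Cybb (0.00674) and -0.25 for Ncf4 (0.015). For Rac2 it was -0.01 (95% interval -0.23 to 0.2, adjusted p = 0.911). After quantile normalization it was -0.19 for Ncf1, -0.1 for Ncf4 and 0.05 for Cybb, none of them called, and 0.4 for Rac2. Without LPS replicate 1 or without LPS+dNC replicate 1 the Ncf4 value was -0.19 in each case and not called.

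LPS+CLA and LPS+Baf A1 were also compared directly, with 54.3% of all genes called, and all 5 members differed. Rac2 was higher under CLA by 0.37 (adjusted p = 2.3e-05). Cyba was lower by 0.61 on the log2 scale (log2 change -0.61, adjusted p = 2.64e-07), with every LPS+CLA library (291.62 to 318.79 FPKM) below every LPS+Baf A1 library (445.16 to 490.24 FPKM). The Ncf4 change was -0.32 (adjusted p = 1.37e-05) and the Ncf1 change -0.17 (adjusted p = 0.0158). The Cybb change of -0.19 (adjusted p = 0.036) was -0.17 to -0.19 and not called without LPS+Baf A1 replicate 1, 2, 4 or 5 or without LPS+CLA replicate 1, 3, 4, 5 or 6, each left out alone. LPS+CLA replicate 2, at 999.28 FPKM, was above every LPS+Baf A1 library (849.92 to 919.21 FPKM). All other LPS+CLA libraries (729.01 to 758.43 FPKM) were below every LPS+Baf A1 library. Over all alternatives the Cybb change lay between -0.32 and -0.17.

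Of the partners that build or mature the complex, Nrros, a membrane protein of the endoplasmic reticulum known to lower gp91phox, and Cybc1, a chaperone (Eros) that gp91phox needs to mature, differed from each other. Nrros fell from 79.81 to 81.31 FPKM in LPS to 48.61 to 55.39 FPKM in LPS+Baf A1 (log2 change -0.64, adjusted p = 5.08e-07) and to 32.82 to 45.12 FPKM in LPS+CLA (-0.98, adjusted p = 2.38e-10), without overlap. It was low in LPS+dNC as well (29.82 to 39.48 FPKM), and rose by 0.36 from there to LPS+siAtg5 (41.86 to 46.2 FPKM), a rise that median-of-ratios scaling brought to 0.04. Cybc1 was at 49.69 to 53.43 FPKM in LPS and rose to 67.19 to 71.76 FPKM in LPS+CLA (0.39, adjusted p = 5.33e-09). Under Baf A1 its rise was 0.13 (adjusted p = 0.00774), which was not called after median-of-ratios scaling (0.07). In LPS+siAtg5 it was lower than in LPS+dNC (-0.38, adjusted p = 6.9e-09). Mean Cybc1 was 68.9 FPKM in LPS+dNC, 52.8 in LPS+siAtg5 and 51.6 in LPS.

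Rac1, the widely expressed Rac, cannot be read with certainty, since 50.289% of its 50-base words are shared with Daglb, whose exons overlap it on the opposite strand by 2309 bases. Its values were 156.7 to 181.58 FPKM in LPS, 161.65 to 165.14 FPKM in LPS+Baf A1 (log2 change -0.03, adjusted p = 0.667) and 186.85 to 212.17 FPKM in LPS+CLA (0.25, adjusted p = 8.18e-05). It was lower in LPS+siAtg5 (mean 179.9 FPKM) than in LPS+dNC (218 FPKM), with a log2 change of -0.27 (adjusted p = 2.51e-05). Against LPS (mean 167 FPKM) it was higher in LPS+siAtg5 by 0.11 (adjusted p = 0.0452 by limma). Rap1b, a small GTPase whose close relative Rap1a copurifies with the cytochrome, fell under Baf A1 (-0.36, adjusted p = 4.79e-05). It was also lower in LPS+siAtg5 than in LPS+dNC (-0.51, adjusted p = 1.61e-07). Mean Rap1b was 496 FPKM in LPS+dNC, 349 in LPS+siAtg5 and 371 in LPS. The difference between LPS+siAtg5 and LPS was -0.08 (adjusted p = 0.241 by limma). Of the 6 partners in all, 2 rose and 3 fell under Baf A1, 3 rose and 1 fell under CLA, and 2 rose and 3 fell in LPS+siAtg5, shares to be read against the percentages of all genes given above. Of the 6 genes of other NADPH oxidases and their organisers found in the table, 0 passed the filter, with Nox4 at 0.21 to 0.34 FPKM in LPS+siAtg5 and Nox1 at 0.2 to 0.38 FPKM in LPS+CLA.

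**Figure D4:**
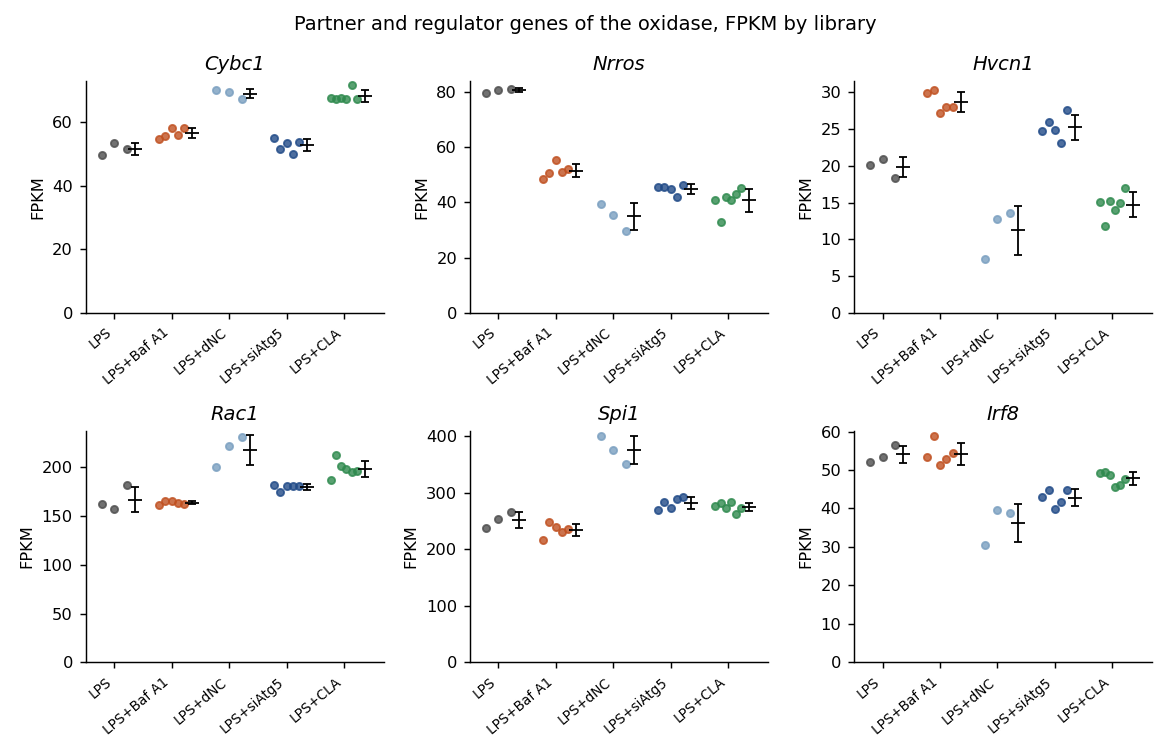
FPKM of Cybc1, Nrros, Hvcn1, Rac1, Spi1 and Irf8 (1 panel each, linear axis from 0) in each library, with the group mean and SD in black. Nrros is at 79.81 to 81.31 in the 3 LPS libraries and below 56 in every other library (highest 55.39), while Spi1 is highest in LPS+dNC (350.22 to 400.24).

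Electron export by the oxidase is balanced by protons, and the voltage-gated proton channel Hvcn1 rose from 18.31 to 20.96 FPKM in LPS to 27.21 to 30.39 FPKM in LPS+Baf A1 (0.51, adjusted p = 0.00119). In LPS+CLA it fell to 11.85 to 17.03 FPKM (log2 change -0.41, adjusted p = 0.00506). In LPS+siAtg5 it was at 23.04 to 27.58 FPKM, above LPS+dNC at 7.34 to 13.58 FPKM (1.14, adjusted p = 1.86e-08). The chloride transporter gene Clcn3 rose in all 3 comparisons (0.37, 0.79 and 0.81 under Baf A1, CLA and siAtg5).

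Transcription factors known to act on the Cybb and Ncf promoters fell more often than they rose. Of the 10, 0 rose and 6 fell under Baf A1, 1 rose and 7 fell under CLA, and 2 rose and 6 fell in LPS+siAtg5 against LPS+dNC, where 25.1%, 22.6% and 21.6% of all genes fell. The medians were -0.21, -0.44 and -0.28 beside 0.04, 0.09 and 0.34 for all genes. Under Baf A1 the falls were 7 after median-of-ratios scaling or quantile normalization, 5 without the 3 libraries that lay apart and 4 relative to the myeloid genes. Of the 11070 genes, 3182, 3099, 3321 and 2296 fell in those settings, in that order. Irf1, an interferon-induced activator, was at 178.4 to 204.54 FPKM in LPS, at 66.23 to 75.06 FPKM in LPS+Baf A1 (log2 change -1.46, adjusted p = 6.67e-14) and at 39.1 to 49.98 FPKM in LPS+CLA (-2.15, adjusted p = 1.75e-17). It was also below LPS in every library of LPS+dNC (95.26 to 107.43 FPKM) and LPS+siAtg5 (62.05 to 67.98 FPKM). A link between Irf1 and the members' levels was not tested. Elf1, an ETS factor, fell by 0.72 under Baf A1 and by 0.81 under CLA on the log2 scale. Spi1 (PU.1), the main myeloid factor at these promoters, was at -0.11 under Baf A1 (adjusted p = 0.069) and 0.12 under CLA (adjusted p = 0.027). It was lower in LPS+siAtg5 than in LPS+dNC (-0.41, adjusted p = 7.97e-08), with means of 282 and 376 FPKM, and 252 FPKM in LPS. Irf8, its partner in macrophages, was at 0.0017 under Baf A1 (adjusted p = 0.987) and -0.17 under CLA (adjusted p = 0.0204), and its rise of 0.24 in LPS+siAtg5 became -0.08 after median-of-ratios scaling. Cebpb and Rela fell there by 0.77 and 0.76 on the log2 scale.

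Enzymes that make NADPH, the fuel of the oxidase, rose in all 3 comparisons, 4 of 4 each time, with medians of 1.04, 1.08 and 1.23 under Baf A1, CLA and siAtg5, where 32.7%, 40.4% and 59.6% of all genes rose. Idh1, cytosolic isocitrate dehydrogenase, rose from 15.3 ± 0.925 FPKM in LPS to 34.6 ± 2.77 under Baf A1 and 65.1 ± 2.72 under CLA (1.13 and 2.02), and Me1, malic enzyme, from 2.88 ± 0.0757 to 8.37 ± 0.588 and 11.4 ± 1.2 (1.27 and 1.67). In LPS+siAtg5 they rose by 2.33 and 2.05 against LPS+dNC. Pgd of the pentose phosphate pathway rose by 0.96, 0.49 and 0.42 in the same order of agents. After median-of-ratios scaling 3 of 4 were called under CLA and siAtg5, where 3370 and 4699 of the 11070 genes rose.

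Enzymes that remove superoxide and peroxide gave 14 rises and 0 falls of 15 under Baf A1, 7 rises and 1 fall under CLA, and 10 rises and 2 falls in LPS+siAtg5. Of all genes, 32.7%, 40.4% and 59.6% rose, and the list's medians were 0.72, 0.21 and 0.91 beside 0.04, 0.09 and 0.34. Catalase (Cat) rose in all 3 comparisons, from 23.0 ± 0.927 FPKM in LPS to 54.7 ± 2.26 under Baf A1 (1.21) and 43.6 ± 2.04 under CLA (0.89), and by 1.55 in LPS+siAtg5. Prdx1, a peroxiredoxin of the cytosol, rose under Baf A1 by 1.01 and was at -0.21 under CLA (adjusted p = 0.0154), a fall that was lost without the 3 libraries that lay apart (-0.05). Prdx6 rose by 2.96 in LPS+siAtg5 against LPS+dNC, where Prdx5 (-1.29) and mitochondrial Sod2 (-1.17) fell. Both of these were high in LPS+dNC. Mean Prdx5 was 2795 FPKM in LPS+dNC, 1142 in LPS+siAtg5 and 1034 in LPS, and mean Sod2 was 440.4, 195 and 246 FPKM. Cytosolic Sod1 rose by 0.77, 0.93 and 0.93 under Baf A1, CLA and siAtg5. After median-of-ratios scaling the CLA counts were 6 rises and 4 falls, with 3370 rises and 3453 falls among the 11070 genes.

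Receptors that set the oxidase off moved less evenly. Under Baf A1 1 of 12 rose and 5 fell, and under CLA 2 rose and 7 fell, where 32.7% of all genes rose and 25.1% fell under Baf A1, and 40.4% rose and 22.6% fell under CLA. Fcgr4, an activating receptor for IgG, fell from 525 ± 63.6 FPKM in LPS to 289 ± 21.5 under Baf A1 (log2 change -0.86) and 344 ± 6.74 under CLA (-0.6), and it fell in LPS+siAtg5 as well (-0.56). Tlr4, the receptor for LPS, fell under Baf A1 (-0.67) and CLA (-0.7). It rose by 0.9 in LPS+siAtg5 against LPS+dNC, where 5 of the 12 rose and 5 fell. Mean Tlr4 was 7.37 FPKM in LPS+dNC and 14.6 FPKM in LPS+siAtg5, both below the 30.1 FPKM of LPS. Against LPS, 1 of the 12 receptors rose and 9 fell in LPS+siAtg5, with 76.8% of all genes called and 79.7% of those calls rises. The ATP-gated channel P2rx7 fell by 0.91 under CLA, with -0.23 under Baf A1 and a rise of 1.09 in LPS+siAtg5, and Tlr2 rose by 1.45 there. LPS+dNC had low means of P2rx7 and Tlr2 (7.06 and 31.8 FPKM), with 16.1 and 88.5 FPKM in LPS+siAtg5 and 20.5 and 79.4 FPKM in LPS. Of the formyl peptide receptors, Fpr2 fell under CLA (-1.12) and in LPS+siAtg5 (-0.57), and Fpr1 fell in LPS+siAtg5 (-0.67). The integrin chains of complement receptor 3 rose under CLA, Itgam by 0.62 and Itgb2 by 0.22, and Itgb2 by 0.25 under Baf A1. The CLA value of Itgb2 was 0.08 after median-of-ratios scaling and was then not called.

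Among 11 tested regulators of Rac, 2 rose and 5 fell under Baf A1, 3 rose and 4 fell under CLA, and 8 rose and 2 fell in LPS+siAtg5. Of all genes, 32.7% rose and 25.1% fell under Baf A1, 40.4% and 22.6% under CLA, and 59.6% and 21.6% in LPS+siAtg5, where the list's median was 0.36 beside 0.34 for all genes. The inhibitor Arhgdib, which holds Rac in the cytosol, rose by 0.43 under Baf A1 and 0.6 under CLA, and its relative Arhgdia by 0.19 and 0.46. The exchange factors Vav1 and Vav3, which load Rac with GTP, fell under Baf A1 by 0.36 and 0.77 on the log2 scale, and Elmo1, part of the exchange complex with Dock2, rose by 0.82 under CLA. In LPS+siAtg5, Tiam2 and Bcr rose by 1.64 and 1.48 from levels under 1 FPKM in LPS+dNC (0.257 ± 0.172 and 0.583 ± 0.248). Arhgap15 fell there (log2 change -1.42) from a high LPS+dNC mean of 5.9 FPKM. Its LPS and LPS+siAtg5 means lay close together (1.52 and 1.58 FPKM), with a log2 change of 0.04 (adjusted p = 0.746 by limma). Median-of-ratios scaling gave 2 rises and 4 falls of these regulators in LPS+siAtg5, with 4699 rises and 3981 falls among the 11070 genes.

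Kinases and lipid enzymes that act on the cytosolic subunits gave 8 rises and 3 falls of 16 under Baf A1, 6 and 1 under CLA, and 8 and 3 in LPS+siAtg5, the last of which became 7 and 9 after median-of-ratios scaling. That scaling gave 4699 rises and 3981 falls among the 11070 genes in LPS+siAtg5. The list's medians were 0.13, 0.11 and 0.14 beside 0.04, 0.09 and 0.34 for all genes, of which 32.7%, 40.4% and 59.6% rose. Akt1, which can phosphorylate p47phox, rose in all 3 (0.49, 0.63 and 0.77). Prkcd, protein kinase C delta, rose by 0.48 under Baf A1 and fell in LPS+siAtg5 (-0.32), and cytosolic phospholipase A2 (Pla2g4a), whose product arachidonic acid helps the oxidase assemble, rose by 0.65 under CLA. Pak1 rose by 2.24 in LPS+siAtg5, where Syk fell (-0.31). The LPS+dNC level of Pak1 was low (mean 2.3 FPKM), with a log2 change of -1.71 from LPS. From LPS to LPS+siAtg5 the Pak1 mean went from 9.76 to 14.5 FPKM, a rise of 0.53 (adjusted p = 5.02e-06 by limma). Pik3r5 (-0.21) and Prkcz (-0.32) fell under Baf A1.

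LC3-associated phagocytosis joins this oxidase to part of the autophagy machinery, and 7 of its genes were measured. Under Baf A1 2 rose and 2 fell, under CLA 1 rose and 2 fell, and in LPS+siAtg5 2 rose and 3 fell, Atg5 itself included (-0.73). Of all genes, 32.7% rose and 25.1% fell under Baf A1, 40.4% and 22.6% under CLA, and 59.6% and 21.6% in LPS+siAtg5, and the list's medians were 0.04, -0.08 and 0.02. Uvrag, a subunit of the class III PI3-kinase complex, fell in all 3 (-0.4, -0.47 and -0.59). Rubcn, which stabilises the oxidase on phagosomes, was at 0.07 under Baf A1 (adjusted p = 0.376) and -0.01 under CLA (adjusted p = 0.933), and its rise of 0.34 in LPS+siAtg5 was 0.05 after median-of-ratios scaling. Atg5 rose by 0.28 under Baf A1 and by 0.27 under CLA.

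**Figure D5:**
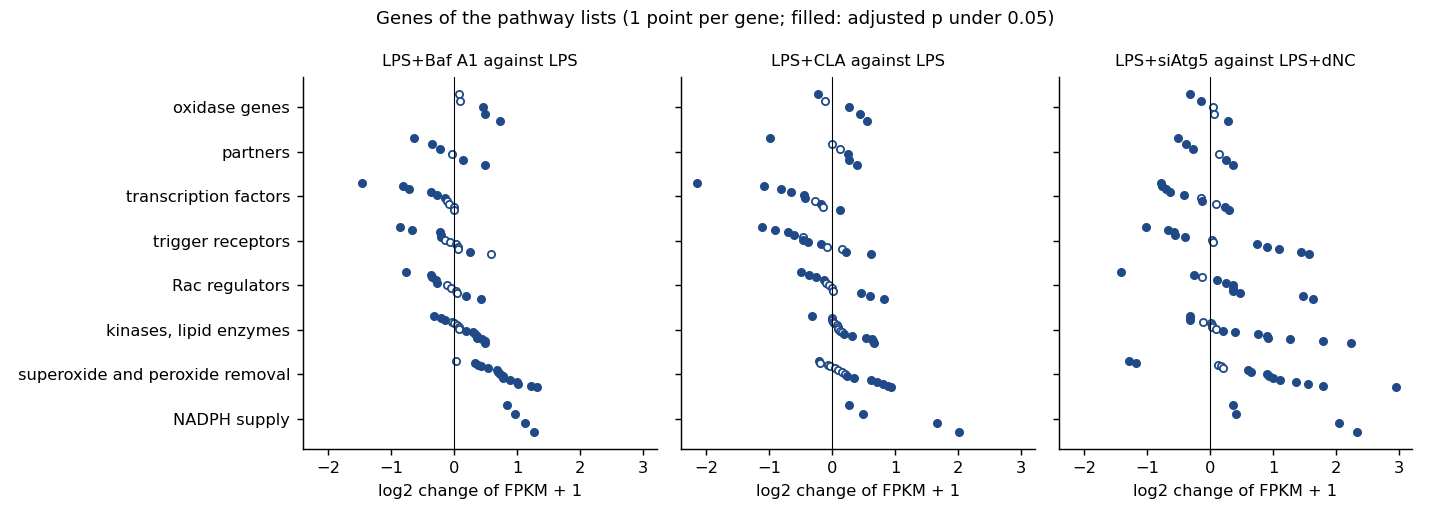
Change on the log2(FPKM + 1) scale of every tested gene of 8 lists around the oxidase in the 3 comparisons named in the design text, 1 point per gene, filled for an adjusted p under 0.05. The 4 NADPH-producing enzymes are all above 0 in each panel, and the transcription factors reach down to -2.15 (Irf1 under CLA).

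The genes whose values followed each member most closely over the 22 libraries were sought among the 7087 tested genes whose mean reached 5 FPKM, by Pearson's r of log2(FPKM + 1). The libraries share their groups, so r describes likeness only. For Cybb they were Alkbh5 (r = 0.93), Cd14 (0.917) and Psmd10 (0.912). For Cyba they were Rab5if (0.945), Tapbp (0.93) and Ube2l6 (0.924), and the first pair also led for Ncf4 (0.895 and 0.877), followed by Pnp (0.875). Ncf1 was followed by Snd1 (0.975), Cox7a2l (0.964) and Acaa1a (0.96). Rac2 had the loosest followers, Drg1 (0.883), Vapb (0.847) and Cap1 (0.842).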

How the data were processed

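RNA of 22 microglial libraries had been sequenced. The deposited values are FPKM per gene symbol, per the file headers for 19 columns. The 3 LPS+dNC columns carry no unit in their headers and were taken as FPKM because their values were of a similar size. Their sums (556496 to 575125) were nevertheless above those of all other libraries (469750 to 525127), so the unit remains an assumption. The submitters' processing notes name StringTie 1.3.1, HISAT2 (no version), Bowtie2 2.2.8, fastp 0.18.0 and CASAVA 1.7 as the authors' tools. Genome build and annotation: not given in the sources used here. Groups came from sample titles. Genes reaching 1 FPKM in 3 or more libraries were analysed as log2(FPKM + 1), which understates changes of low genes. One limma 3.58.1 model in R 4.3.3 with 5 group means (trend, robust, 17 residual degrees of freedom) gave all 7 contrasts, with Benjamini-Hochberg adjustment over 11070 genes and calls at adjusted p under 0.05. The script was tested on simulated data. Depth is unknown, so precision rests on the spread between libraries.

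The members and gene lists were chosen with earlier results of these data known. Named were the members, 8 genes with roles nearest to the complex wherever called (some are not reported here), up to 2 genes per list, direction and design comparison with the smallest adjusted p, and 3 likest genes per member. Same-numbered libraries of compared groups did not deviate together (correlations -0.113 to 0.091). Alternatives changed the pseudocount, the filter, the scaling, the fit and the libraries used.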

Additional observations from a re-analysis of the deposited data

Results flagged for a closer look

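In LPS+CLA replicate 2, Cybb was at 999.28 FPKM and Rac2 at 723.71 FPKM, each far above the other 5 libraries of its group. The gap to the nearest library was 0.891 and 0.633 of the group's range. Of 15 sets tested in this way, each 1 member in 1 group of 4 to 6 libraries, 2 stood out, where chance gives about 1 in 20 per set. Both came from LPS+CLA replicate 2 and are not independent. LPS and LPS+dNC, with 3 libraries each, were not tested. That library also lay apart from its group over all genes, and leaving it out changed no call of a member in LPS+CLA against LPS.

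The siAtg5 effect was below the Baf A1 effect by a direct test for Cybb (-0.4), Cyba (-0.81), Ncf1 (-0.43) and Ncf4 (-0.25) on the log2 scale. The CLA effect differed from the Baf A1 effect, which shares the LPS libraries with it, for Cybb (-0.19), Cyba (-0.61), Ncf1 (-0.17), Ncf4 (-0.32) and Rac2 (0.37).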

How the results depend on the processing

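Each log2 change of a member was recomputed under all alternatives. The Baf A1 rises of Cybb (0.35 to 0.52), Cyba (0.39 to 0.58) and Ncf1 (0.6 to 0.77) and the CLA changes of Ncf1 (0.41 to 0.59), Ncf4 (-0.37 to -0.18) and Rac2 (0.3 to 0.54) stayed past the threshold in all of them. Under Baf A1, Ncf4 came to be called with array weights (0.12), without the 3 libraries that lay apart (0.14) and relative to the myeloid genes (0.14), and Rac2 with array weights (0.14) and without those libraries (0.17), while leaving out single libraries gave Rac2 -0.0033 to 0.17. Under CLA, Cybb lost its call with median-of-ratios scaling (0.12), with only the compared groups fitted (0.26, adjusted p = 0.0504) and relative to the myeloid genes (0.17), with 0.16 to 0.33 on leaving out single libraries and 0.09, still called, without the 3 libraries, and Cyba gained one with median-of-ratios (-0.27) and quantile scaling (-0.28) and relative to the myeloid genes (-0.22). For LPS+siAtg5 against LPS+dNC, median-of-ratios scaling gave Cybb -0.27, Ncf1 -0.04 and Rac2 -0.27, quantile normalization Cybb 0.48, Cyba -0.05, Ncf4 -0.04 and Rac2 0.41, and centring on the myeloid genes Cybb -0.17, Ncf1 0.07 and Rac2 -0.16. Array weights gave Cybb -0.05, and leaving out the 3 libraries gave Cybb -0.04 and Ncf4 -0.09. Single libraries left out gave Cybb -0.04 to 0.11 and Ncf4 -0.23 to -0.09. The cause was not tested.

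With a replicate block, Ncf4 in LPS+siAtg5 against LPS+dNC was -0.15 and no longer called (adjusted p = 0.0522), and Cybb in LPS+CLA against LPS+Baf A1 was -0.17 (adjusted p = 0.0802). The block changed no other call of a member, and it gave 6031, 8761 and 6449 called genes under Baf A1, siAtg5 and CLA, against 6395, 8988 and 6981.

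In LPS+dNC against LPS, Cyba ranged from 0.22 to 0.63 and Ncf1 from -0.5 to -0.22, and calls were gained in some settings by Cybb (down to -0.36), Rac2 (up to 0.25) and Ncf4 (0.17). In LPS+siAtg5 against LPS, calls were gained by Cybb (down to -0.48), Ncf1 (-0.41), Ncf4 (-0.46) and Cyba (up to 0.24), and Rac2 lost its call relative to the myeloid genes (0.09). Directions turned for LPS+dNC against LPS with quantile normalization (Ncf4 -0.06, Rac2 -0.06) and without LPS replicate 1 or LPS+dNC replicate 1 (Ncf4 -0.01 each, and -0.01 to 0.13 over the single libraries left out), and for LPS+siAtg5 against LPS with quantile normalization (Cybb 0.12) and median-of-ratios scaling (Cyba -0.2, Rac2 -0.16). For the siAtg5 minus the Baf A1 effect, quantile normalization gave Cybb 0.05 and Rac2 0.4, and leaving out single libraries turned Rac2 to 0.01, 0.02, 0.03 or 0.06 in 5 cases of a range from -0.11 to 0.06.

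Counts of called genes stayed within 1.5 times the main count. The share of calls that were rises was 56.6% under Baf A1 (49.8% with median-of-ratios scaling, 63.5% relative to the myeloid genes), 64.1% under CLA (49.4%, and 54.0% with quantile normalization) and 73.4% in LPS+siAtg5 (54.1% and 49.1%). Without read counts, depth sets no limit that can be stated here.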
